A study of Mus musculus with 18 samples.

Results

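Fgf5, Otx2, Pou3f1, Zic2, Zic5 and Lef1 are genes whose RNA rises when mouse pluripotent cells leave the naive state. They were taken as a fixed list of 6 genes out of 21631 protein-coding RefSeq genes on the autosomes and chromosome X. No measured value of these libraries enters the list, but it was chosen with earlier results of these data known. No RNA was measured, so everything below concerns histone marks at these genes while they are held in naive culture. The cells were E14 mouse embryonic stem cells, an established line, grown on gelatin in 2i/LIF, a medium with the GSK3 inhibitor CHIR99021, the MEK inhibitor PD0325901 and the cytokine LIF, with isotope-labelled or light arginine and lysine. There were 18 chromatin immunoprecipitation (ChIP-seq) libraries in 9 groups of 2. Untreated cells gave 10 libraries, for H3K27me1, H3K27me2, H3K27me3, H3K36me2 and H3K36me3, with no spike-in. The other 8 libraries were quantitative, for H3K27me3 and H3K36me2, from cells kept for 7 days in 10 µM EPZ-6438 (EZH2i) or in the same volume of the solvent DMSO, with Drosophila S2 chromatin added at 0.05% of the total.

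The naive state resembles the epiblast of the blastocyst before implantation, and the formative and primed states resemble the epiblast after it. On leaving the naive state cells shut down naive factors and switch on a new set, which includes the growth factor FGF5 and the transcription factors OTX2, POU3F1 (also called OCT6), ZIC2, ZIC5 and LEF1. PRC2, whose catalytic subunit is EZH2, methylates lysine 27 of histone H3, and its trimethylated form marks silent developmental genes, mostly at CpG-rich starts. H3K36me2 is laid down over wide regions by NSD enzymes, and H3K36me3 by SETD2 along transcribed gene bodies. EPZ-6438 blocks EZH2.

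Coordinates are those of RefSeq for GRCm38, the same build as mm10, which the submitters' processing notes name. Fgf5 lies at chr5:98254184-98277033 on the plus strand, Otx2 at chr14:48656781-48667644 on the minus strand, Pou3f1 at chr4:124657646-124660655, and Lef1 at chr3:131110297-131224357 on the plus strand. Zic5 (chr14:122459160-122465658, minus strand) and Zic2 (chr14:122475384-122480328) are neighbours that point away from each other, with starts 9.73 kb apart. The start region was 1 kb to either side of the 5′ end of the gene record, the body was the whole record, and the flanks were 20 kb beyond each end. The flanks of Zic2 and Zic5 share windows, so these genes are not independent in that region. The strand of Pou3f1 and Zic2 was taken as plus from general knowledge, since the reference tables used here do not give it.

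Promoters are shown because H3K27me3 covers the starts of some of these genes and not of others, and PRC2 is known for CpG-rich DNA. The 250 bases before the start are printed 5′ to 3′ on the strand of the gene, from RefSeq on GRCm38.p6, with every CpG in capitals, for the 4 genes with an entry at their start. They span chr5:98253934-98254183 (Fgf5), chr14:48667645-48667894 (Otx2), chr3:131110047-131110296 (Lef1) and chr14:122465659-122465908 (Zic5).
Fgf5: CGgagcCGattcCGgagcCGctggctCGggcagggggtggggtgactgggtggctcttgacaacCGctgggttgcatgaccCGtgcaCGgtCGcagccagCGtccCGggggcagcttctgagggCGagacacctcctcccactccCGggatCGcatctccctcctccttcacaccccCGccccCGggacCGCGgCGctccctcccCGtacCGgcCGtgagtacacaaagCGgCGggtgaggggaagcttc
Otx2: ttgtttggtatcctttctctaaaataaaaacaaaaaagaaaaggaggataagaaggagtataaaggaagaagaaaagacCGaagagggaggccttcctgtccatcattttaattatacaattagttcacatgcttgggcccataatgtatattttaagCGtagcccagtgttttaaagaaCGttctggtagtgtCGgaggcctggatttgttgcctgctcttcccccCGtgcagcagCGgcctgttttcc
Lef1: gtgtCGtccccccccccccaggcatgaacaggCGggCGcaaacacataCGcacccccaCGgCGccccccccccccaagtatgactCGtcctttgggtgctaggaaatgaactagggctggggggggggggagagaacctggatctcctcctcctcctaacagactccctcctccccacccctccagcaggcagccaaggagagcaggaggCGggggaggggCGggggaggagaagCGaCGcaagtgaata
Zic5: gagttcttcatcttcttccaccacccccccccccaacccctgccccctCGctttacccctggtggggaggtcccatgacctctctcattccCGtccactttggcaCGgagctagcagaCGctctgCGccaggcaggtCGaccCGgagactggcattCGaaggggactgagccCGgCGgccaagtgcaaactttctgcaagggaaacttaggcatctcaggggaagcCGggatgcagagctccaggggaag

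The Fgf5 promoter held 24 CpG dinucleotides in these 250 bases and was 70.8% G and C. Over 32851 mouse promoter windows of the same length the median number of CpG was 6, and Fgf5 stood at percentile 88.0. Lef1 and Zic5 each held 11, at percentile 64.4, and Otx2 held 6 with 42.0% G and C. Further annotated starts gave other numbers: 14 at a Lef1 start 0.026 kb on (percentile 70.6), 6 and 5 at those deeper in Lef1, and 8, 14 and 9 at those of Otx2. Pou3f1 and Zic2 are not in this comparison.

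In untreated cells the 6 genes fell into 2 sets. H3K27me3 was high at the starts of Pou3f1, Fgf5, Otx2 and Lef1 and low at those of Zic2 and Zic5. The Zic2 and Zic5 bodies had the highest H3K36me3 of the 6. It exceeded the library mean over 5 of the 6 bodies, as in 68.8% of genes, so it does not by itself divide the sets. Levels are given as multiples of the mean of the same library over 2633787 windows of 1 kb, so a value of 1 is the average of the genome. H3K27me3 at the Pou3f1 start was 15.8 and 12.5 in the 2 libraries. At the Fgf5 start it was 9.06 and 9.28, at the Otx2 start 6.75 and 7.26, and at the Lef1 start 5.65 and 5.90. At the Zic2 start it was 0.118 and 0.234, and at the Zic5 start 0.118 and 0.328.

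Both libraries of each of the first 4 genes therefore lay above both libraries of the Zic pair. The mean ± SD (n = 2) fell in the order Pou3f1 (14.1 ± 2.36), Fgf5 (9.17 ± 0.156), Otx2 (7.01 ± 0.367), Lef1 (5.78 ± 0.182), Zic5 (0.223 ± 0.149) and Zic2 (0.176 ± 0.0825). Neighbours in this order did not overlap between libraries, with the exception of Zic5 and Zic2. The median over 17276 genes with a start was 0.451. Pou3f1 stood at percentile 99.2 of these genes, Fgf5 at 95.1, Otx2 at 91.6, Lef1 at 88.8, Zic5 at 38.3 and Zic2 at 34.1. In each set the 2 DMSO libraries gave the same division, with 21.2 to 26.6 at Pou3f1 and 0.236 to 0.378 at the Zic starts.

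**Figure D1:**
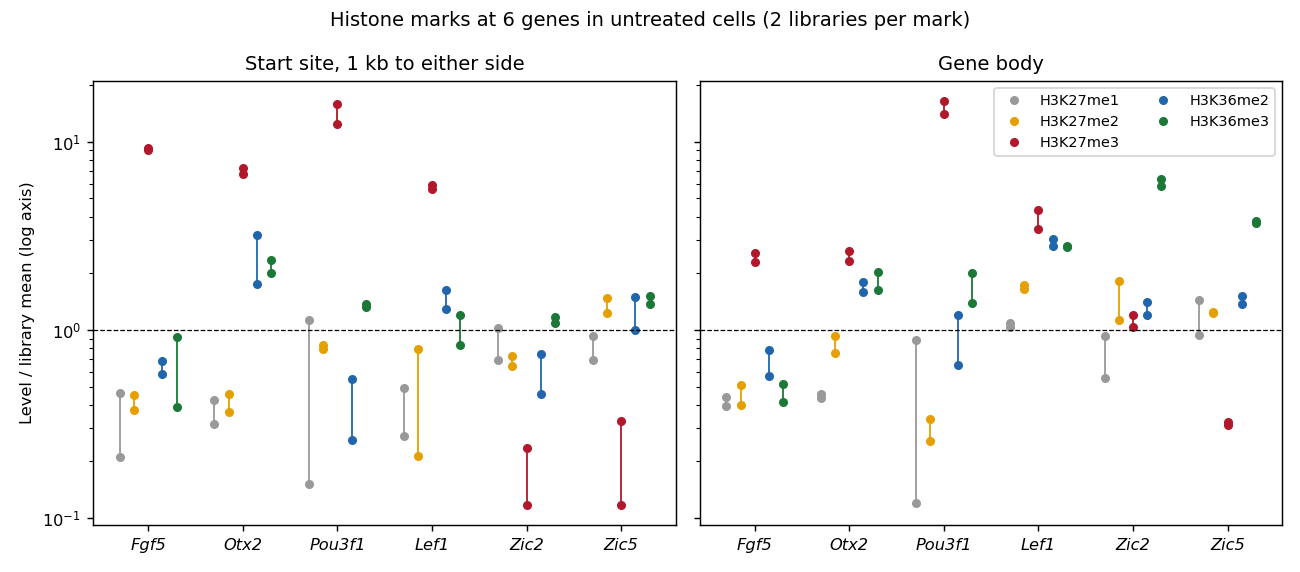
Level of 5 histone marks at the start (left) and over the body (right) of each gene in untreated cells, as a multiple of the library mean on a log axis; each point is 1 library, lines join the 2 libraries of a mark and the dashed line is the library mean. H3K27me3 at the start ranges from 5.65 to 15.8 in Fgf5, Otx2, Pou3f1 and Lef1 and from 0.118 to 0.328 in Zic2 and Zic5, whose bodies show the highest H3K36me3 of the 6.

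The authors' deposited peaks gave the same division. They come from the same untreated libraries, so they are not independent of these levels. An H3K27me3 peak covered the start region of 4 of the 6 genes, Fgf5, Otx2, Pou3f1 and Lef1, against 32.6% of genes with a start. No H3K27me1 peak (29.8% of genes) and no H3K27me2 peak (34.4%) covered at least 500 bp of a start region of any of the 6. An H3K36me2 peak covered 2 of the 6, Otx2 and Lef1, against 53.8% of genes.

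Pou3f1, a POU-domain factor of neural and epithelial lineages, had the widest H3K27me3 peak of the 6, 171 kb at chr4:124504001-124675000, and its deposited score ranked at percentile 99.9 of that list. The peak took in all 3.01 kb of the gene and 85.9% of the flanks. The lncRNA Gm2164 (chr4:124522925-124657487) also lies inside it, and its record comes to within 0.159 kb of the Pou3f1 start. The share of the signal that belongs to each gene cannot be told apart. H3K27me3 over the body was 16.5 and 14.0, with the mean at percentile 99.8 over all genes. H3K36me2 had the opposite course around the start, but not in the flanks. Its peaks covered 95.5% of the flanks and 38.4% of the body. H3K36me2 peaks ended at chr4:124656000 before the gene and began again at chr4:124659501, inside it, and the start region lay in the gap. The lowest H3K36me2 window within 20 kb stood 0.145 kb before the start in the untreated, DMSO and EPZ-6438 libraries alike, at 0.325, 0.573 and 0.534 times the library mean. Pou3f1 is short, and H3K27me1 over its body differed widely between libraries (0.880 and 0.121).

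Lef1, a Wnt-responsive HMG-box factor, lay inside a 136.5 kb H3K27me3 peak (chr3:131090501-131227000) that took in its whole 114.1 kb body. The same body was covered to 98.2% by H3K36me2 peaks and to 82.7% by H3K27me2 peaks. The 3 marks were thus all above average over it. H3K27me3 was 4.32 and 3.42, H3K36me2 was 3.03 and 2.80, and H3K27me2 was 1.65 and 1.73. H3K36me3 over the Lef1 body was 2.77 and 2.81, and the median gene had 1.99. Its H3K27me3 maximum within 20 kb of the start, 11.3, stood 1.204 kb after the start. At 2 further annotated starts, 2.49 and 46.0 kb into the gene, H3K27me3 was 6.44 ± 0.429 and 5.19 ± 1.04 (SD, n = 2), close to 5.78 at the first.

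Fgf5, a secreted growth factor long used as a marker of the epiblast after implantation, carried H3K27me3 almost alone. A 27.5 kb peak covered its start (chr5:98233501-98261000), a 12 kb peak lay further along the body and a 33 kb peak followed the gene. The H3K27me3 maximum within 20 kb of the start, 9.71, stood 0.317 kb after the start. Over the body it was 2.30 and 2.58. No H3K36me2 peak touched the body, where H3K36me2 was 0.571 and 0.778. H3K36me3 over the body was 0.516 and 0.415, the lowest of the 6 genes, with the mean at percentile 17.0 over all genes.

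Otx2, a homeobox factor of the anterior epiblast and forebrain, combined both marks at its start. A 16 kb H3K27me3 peak (chr14:48659001-48675000) and an 11.5 kb H3K36me2 peak (chr14:48659001-48670500) began at the same base. Both peaks reach into the record of the lncRNA Otx2os1 (chr14:48669288-48793348), which lies 1.64 kb from that of Otx2. The untreated maxima of H3K27me3 (7.59) and H3K36me2 (3.25) within 20 kb stood 1.857 kb before the Otx2 start. The share of the signal that belongs to each gene cannot be told apart. H3K36me2 at the start was 3.20 and 1.75, the highest mean of the 6 (2.48 ± 1.03), and it did not overlap Lef1, the next in order. H3K27me3 fell along the gene from 7.01 at the first start to 4.97 ± 0.402 at an annotated start 2.54 kb in and 1.63 ± 0.520 at another, 4.91 kb in.

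Zic2 and Zic5, zinc-finger factors of the epiblast and neural plate, had no H3K27me3 peak over either body and H3K27me3 peaks on both sides. H3K27me3 over the body was 1.04 and 1.195 in Zic2 and 0.314 and 0.324 in Zic5. A 3.5 kb H3K36me2 peak lay inside the Zic5 body. One 7 kb H3K27me3 peak lay beyond the 3′ end of Zic5 (chr14:122447501-122454500). A 10.5 kb H3K27me3 peak lay just past Zic2 (chr14:122481001-122491500), where H3K27me3 reached 6.92 at 10.1 kb after the Zic2 start. That maximum lies inside the neighbouring gene Pcca (chr14:122484365-122889944). H3K36me3 over the body was 5.85 and 6.32 in Zic2, and 3.80 and 3.70 in Zic5. These lay above both libraries of each of the other 4 genes, with means at percentiles 86.3 and 70.7 over all genes. The record of a further annotated gene, the lncRNA 2610035F20Rik, comes to within 0.185 kb of the Zic2 start. ChIP signal carries no strand, so the share of it that belongs to each transcript cannot be told apart.

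**Figure D2:**
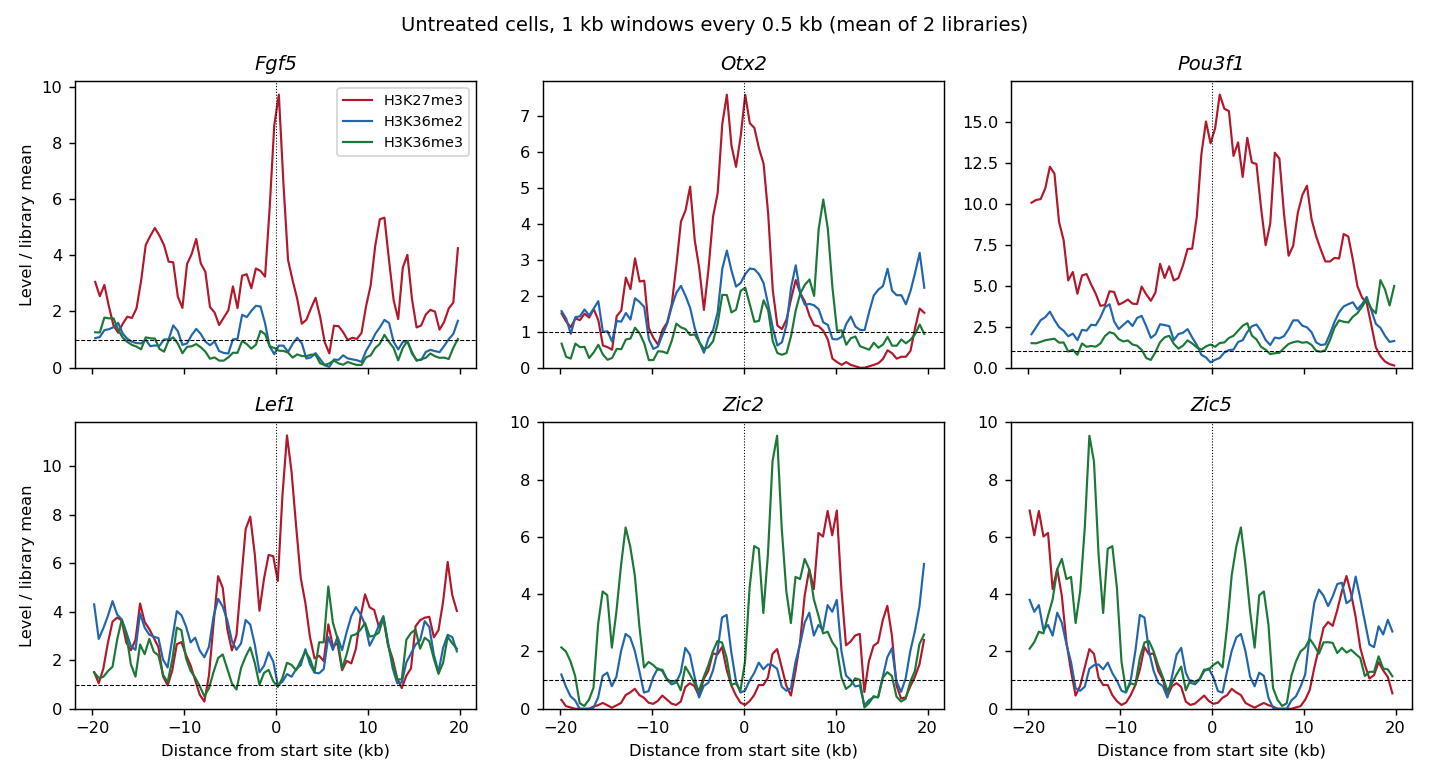
Untreated H3K27me3, H3K36me2 and H3K36me3 within 20 kb of each start, oriented along the gene, in 1 kb windows every 0.5 kb; lines are means of 2 libraries, as multiples of the library mean (dashed line). H3K27me3 is highest within 2 kb of the start of Fgf5, Otx2, Pou3f1 and Lef1 (maxima 9.71, 7.59, 16.6 and 11.3), before the start at Otx2 and after it at the other 3, and lies away from the Zic2 and Zic5 starts, and H3K36me2 dips at the Pou3f1 start.

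Relatives of the 6 genes did not all share their state. H3K27me3 at the start exceeded the library mean in both libraries in 35.3% of all genes with a start. In untreated cells it did so in all 4 class III POU genes, from 5.40 at Pou3f4 to 14.1 at Pou3f1, and in 15 of 16 FGF ligands with a start, Fgf4 being the exception at 0.133 ± 0.0771. Of the 4 TCF/LEF genes Lef1 did so in untreated cells, where Tcf7 had 0.869, Tcf7l1 0.0784 and Tcf7l2 0.0392. In the DMSO libraries Tcf7 had 3.59 ± 0.0105 (SD, n = 2), above the mean, and Lef1 had 11.6 ± 0.814. Zic1 and Zic4, whose starts share windows, had 7.96 ± 0.336, unlike Zic2 and Zic5.

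Among 13 other formative and primed genes with a start, 9 exceeded the mean, with a median of 2.82. The 4 that did not, named here after their values were seen, were Etv5, Dusp6, Nodal and Pim2. Of 10 naive genes with a start 1 did, Esrrb, with a median of 0.121 over the list. H3K36me3 over the body exceeded the mean in 14 of 14 naive genes (median 6.25), 17 of 20 other formative and primed genes (median 2.79) and 5 of the 6 genes described here (median 2.31). The share over all genes was 68.8%.

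The genes with the most similar start profile over 16 libraries were found by Euclidean distance of log2 levels, leaving out the shallow H3K27me3 libraries after the inhibitor. They were Rgs7bp and Gabrg3 for Fgf5, Zfp697 and Klb for Otx2, Kcnk12 and Adamts2 for Pou3f1, and Shisal2b and Tiam2 for Lef1. For Zic2 they were Spdl1 and Zfand3, and for Zic5 Rbp7 and Usp10. The distance between Zic2 and Zic5 was 2.77. Of all genes 7.15% were nearer to Zic2 than Zic5 was, and 7.60% were nearer to Zic5 than Zic2 was. Among Fgf5, Otx2, Pou3f1 and Lef1 distances ran from 2.41 (Fgf5 and Lef1) to 6.11 (Otx2 and Pou3f1), and 30.5% of all genes were nearer to Otx2 than Pou3f1 was. Distances from Zic2 or Zic5 to the other 4 genes ran from 9.32 to 12.2. The median distance to all 17275 other genes was 5.49 from Zic2 and 5.66 from Zic5. From the other 4 it ran from 8.83 (Otx2) to 11.1 (Pou3f1). Seen from those 4, between 54.4% and 60.3% of genes were nearer than a Zic gene, which is close to the middle. Seen from Zic2 or Zic5, between 84.0% and 98.8% of genes were nearer than one of those 4.

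After 7 days of EPZ-6438, H3K27me3 fell at all 6 genes on the spike-in scale, and so did nearly every gene. Relative to library totals the direction differed between the genes, as given further on. Over the Pou3f1 body the DMSO libraries had 1196 and 710 scaled reads per window and the inhibitor libraries 9.32 and 5.15. Over the Lef1 body they had 217 and 139 after DMSO and 0.257 and 0.206 after the inhibitor. Over the Fgf5 body the values were 99.5 and 59.0, and then 0.0770 and 0.0473. The inhibitor libraries lay far below the DMSO libraries at each of these genes.

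Over the Otx2 body H3K27me3 was 198 and 85.1 after DMSO and 0.0484 and 0.0842 after the inhibitor. Over the Zic2 body it was 69.1 and 53.5, and then 0.242 and 0.0866. Over the Zic5 body it was 22.1 and 19.6, and then 0.0660 and 0.162. The arms did not overlap at any of the 6.

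The ratio of the DMSO mean to the inhibitor mean over the body was 2133 at Otx2, 1276 at Fgf5, 770 at Lef1, 373 at Zic2, 183 at Zic5 and 132 at Pou3f1. For the mean of all windows it was 534. The Otx2, Zic2 and Zic5 ratios rest on few inhibitor reads (12 each over non-overlapping windows with at least 500 bp inside the body) and moved by over 1.5 times when 1 library was left out, a check added after seeing the data. Otx2 had 1284 without DMSO library 1, Zic2 had 708 without EPZ-6438 library 1, and Zic5 had 316 without EPZ-6438 library 2. The order of these genes by ratio is therefore uncertain. With limma on log2(level + 1), fitted over all genes with Benjamini-Hochberg adjustment, all 6 were called lower over the body, where 99.7% of 19068 genes tested were called lower. The log2 differences there ran from -7.15 (SE 0.28, adjusted p 2.59e-08) at Lef1 to -4.29 (SE 0.23, adjusted p 1.38e-07) at Zic5. This scale understates the change of low genes, since the inhibitor levels are mostly under the added 1. All 6 were called lower at the start too, where 98.1% of genes were, and in the flanks, where 100% were. With shares this high over all genes, the calls say nothing particular to the 6. The labels do not say that replicates came from separate cultures, so p-values measure only the spread between these libraries.

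**Figure D3:**
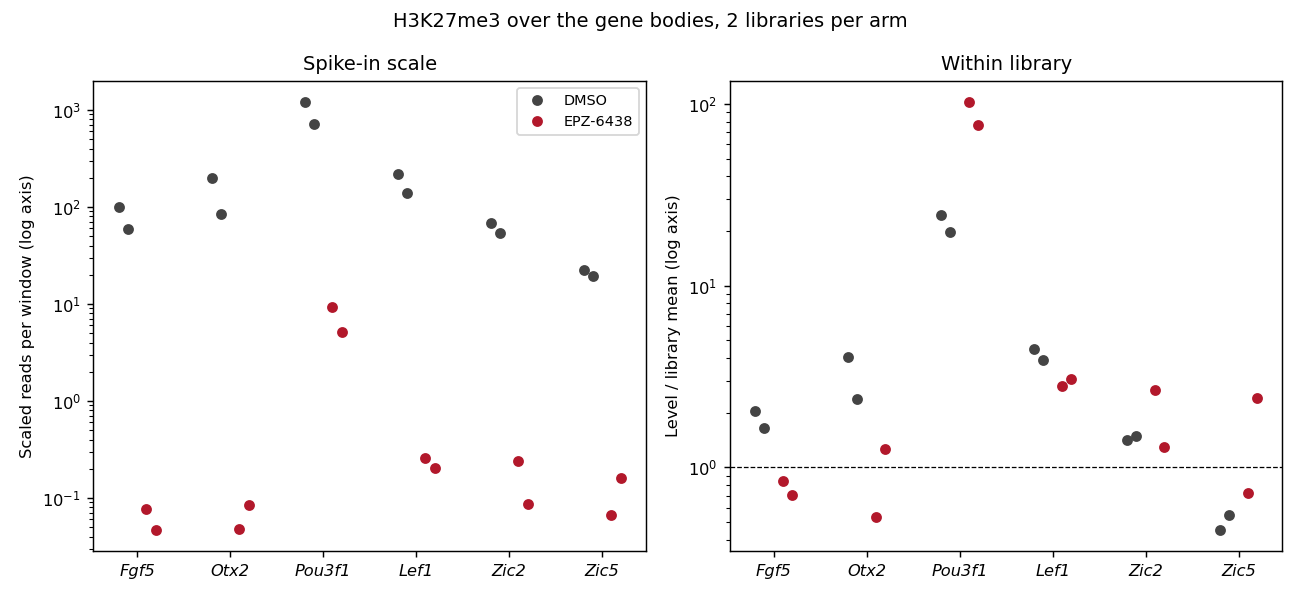
H3K27me3 over the gene bodies after DMSO and EPZ-6438, each point 1 library, on the spike-in scale (left, scaled reads per window, log axis) and as a multiple of the library's own mean (right, log axis, dashed line at the mean). On the left every gene lies lower after the inhibitor; on the right Pou3f1 lies at 24.6 and 19.9 after DMSO and at 102 and 77.1 after the inhibitor, and Otx2 and Fgf5 lie lower.

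What remained after the inhibitor was spread unequally over the 6 genes. These libraries were shallow, with an estimated 0.750 and 1.34 M mouse reads (M, 1000000) against 16.3 and 21.1 M in the DMSO libraries, so counts are given. Reads were counted over non-overlapping windows with at least 500 bp inside a region, which can reach past its ends, while the levels elsewhere use windows wholly inside. The ratios here therefore differ from those levels, and their intervals do not apply to them. At the library mean the Pou3f1 body would have held 3.15 window reads over both inhibitor libraries, and it held 209, which is 66.3 times as many (95% exact Poisson interval 57.6 to 75.9). The Lef1 start held 53 against 2.10, a ratio of 25.2 (18.9 to 33.0). The Fgf5 start held 17, a ratio of 8.08 (4.71 to 12.9).

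The Otx2 start held 4 reads, a ratio of 1.90 (0.518 to 4.87), and the Otx2 body 12 against 11.6, a ratio of 1.04 (0.536 to 1.81). The Fgf5 body held 28 against 24.2, a ratio of 1.16 (0.769 to 1.67), where windows wholly inside gave levels of 0.845 and 0.707. On these counts the Otx2 start and body and the Fgf5 body were not distinguishable from the library mean. The starts of Lef1 and Fgf5 and the Pou3f1 body were above it. So were the Pou3f1 start (57.1, 47.3 to 68.2), the Lef1 body (3.11, 2.80 to 3.44) and the Zic2 body (2.28, 1.18 to 3.99). The Zic5 body was not (1.63, 0.843 to 2.85). By levels over windows wholly inside, 44.1% of all starts and 54.8% of all bodies exceeded the mean in both inhibitor libraries. Lying above it is thus common. The Zic5 start held 3 reads, a ratio of 1.43 (0.294 to 4.17). The Zic2 start held 8, of which 6 were in 1 library, a ratio of 3.80 (1.64 to 7.50), also above the mean. These intervals cover counting error only, and a read that spans a window edge counts in both windows.

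Relative to their own library mean, levels at the Pou3f1 start were 26.6 and 21.2 after DMSO and 35.8 and 45.2 after the inhibitor, and over the body 24.6 and 19.9 against 102 and 77.1. Both inhibitor libraries exceeded both DMSO libraries. The highest window within 20 kb of the Pou3f1 start, at 130 and 99.3 times the library mean, stood 1.36 kb after the start. At the Lef1 start the values were 12.1 and 11 after DMSO and 11.9 and 31.9 after the inhibitor, so the arms overlapped. Within 20 kb of the Lef1 start the maximum after the inhibitor, 41.3, stood 1.204 kb after the start. It was at the same window as the maximum in the DMSO libraries (19.1).

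At the Otx2 start the relative level was 6.59 and 6.65 after DMSO and 2.66 and 1.48 after the inhibitor. Over the Otx2 body it was 4.06 and 2.38, and then 0.531 and 1.26. Otx2 thus lay lower in both inhibitor libraries in both regions. At the Fgf5 start the arms overlapped, with 15.6 and 10.9 against 10.6 and 11.9, and over the Fgf5 body both inhibitor libraries were lower, at 0.845 and 0.707 against 2.05 and 1.65. An exact two-sided permutation test on 2 against 2 libraries cannot go below p = 0.333, which is the value for each of the comparisons without overlap.

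Counted over the bodies, 2 of the 6 (Pou3f1 and Zic5) had both inhibitor libraries above both DMSO libraries relative to the library mean, where 50.9% of genes did. In 3 of the 6 (Fgf5, Otx2 and Lef1) both were below, where 28.4% of genes were. At the start Pou3f1 and Zic2 were above (31.0% of genes) and Otx2 was below (30.6%). The Zic calls rest on few inhibitor reads, 6 and 2 at the Zic2 start and 2 and 10 over the Zic5 body. The Pou3f1 start had 43 and 77. One window read equals 2.66 or 1.48 times an inhibitor library's mean. The mean DMSO levels were 0.341 at the Zic2 start and 0.502 over the Zic5 body, so a few reads suffice to place either above. In the flanks Lef1 was above (44.0%) and the other 5 were below (28.5%). The change of the mean relative level over the body, on the log2 scale, was 2.01 at Pou3f1, 1.65 at Zic5, 0.44 at Zic2, -0.50 at Lef1, -1.25 at Fgf5 and -1.85 at Otx2. The median over all genes tested was 0.56.

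**Figure D4:**
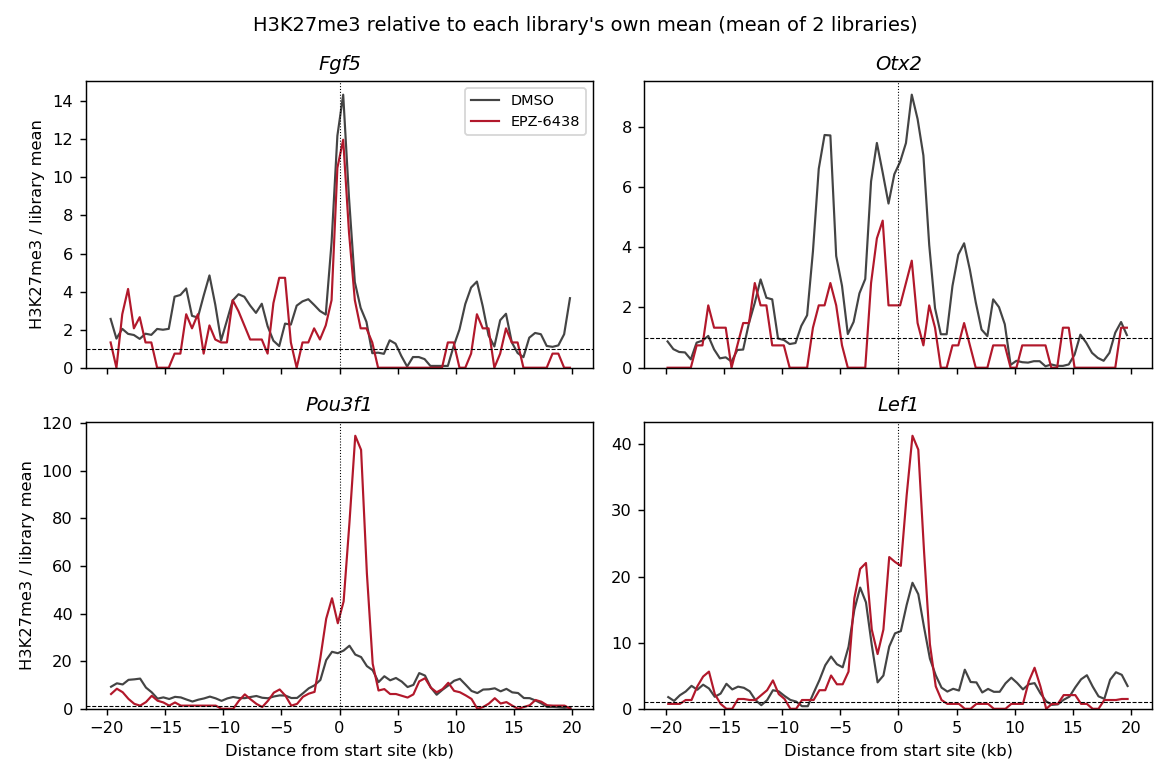
H3K27me3 within 20 kb of the starts of Fgf5, Otx2, Pou3f1 and Lef1 after DMSO and EPZ-6438, as multiples of each library's own mean (means of 2 libraries, dashed line at 1; vertical scales differ between genes). After the inhibitor the highest window stands within 2 kb of the start. It reaches 115 at Pou3f1, 41.3 at Lef1, 12.0 at Fgf5 and 4.88 at Otx2, where few reads lie behind it. At Pou3f1 47 of the 80 windows exceed the mean in both inhibitor libraries, against 75 after DMSO. Depth differs, so these counts cannot be compared. One window read equals 2.66 or 1.48 times an inhibitor library's mean, and 0.122 or 0.0944 times a DMSO library's mean.

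The flanks of Pou3f1 did not follow its body. Their relative level was 7.40 and 6.40 after DMSO and 5.87 and 3.80 after the inhibitor, lower in both libraries. Of its relatives Pou3f3 had 31.8 ± 5.30 (SD, n = 2) over the body after the inhibitor, Pou3f2 6.24 ± 0.188 and Pou3f4 6.28 ± 0.502. Zic1, which shared its H3K27me3 state with Pou3f1 rather than with Zic2, had 25.0 ± 3.01.

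H3K36me2 did not pass the limma test of the 2 arms, fitted without a term for the replicate number, at any of the 6 genes. On the spike-in scale, 0 of 6 were called at the start, where 0.7% of 16712 genes were, 0 of 6 over the body, where 0.164% were, and 0 of 6 in the flanks, where 0.0% were. Over all genes 457, 289 and 117 had an unadjusted p under 0.05 in these regions. The log2 differences ran from -0.52 (Pou3f1 body) to 0.65 (Zic2 start), each with an adjusted p of 1. The 95% interval was -1.49 to 0.44 for the first and -0.55 to 1.85 for the second. The limma SE was the same at all 6 genes, 0.61 at the start and 0.49 over the body. These intervals and p-values thus carry a spread pooled over genes, not that of the gene itself. The 2 libraries of an arm also differed as a whole: their means over all windows were 323 and 213 in the DMSO arm and 404 and 227 in the EPZ-6438 arm.

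Over the Pou3f1 body H3K36me2 was 417 and 406 scaled reads per window after DMSO and 281 and 291 after the inhibitor. Both inhibitor libraries were thus lower over this 1 body of the 6, as in 0.904% of genes, and the limma difference stood at percentile 0.221 of all genes tested. Relative to the library means the Pou3f1 body had 1.60 ± 0.434 (SD, n = 2) after DMSO and 0.991 ± 0.418 after the inhibitor. The arms barely separated there, with a log2 difference of -0.0021 between the nearest libraries. This body holds only 4 overlapping windows. At the Zic2 start H3K36me2 on the spike-in scale was 197 and 139 after DMSO and 219 and 308 after the inhibitor. Over the Zic2 body it was 364 and 300, then 432 and 376. Zic2 alone of the 6 was higher in both inhibitor libraries at the start, as were 8.29% of genes, and over the body, as were 6.35%. None of the 6 was lower in both at the start, where 3.73% of genes were. Relative to the library means the Zic2 arms overlapped in both regions. At the start of Otx2 it was 742 and 339, then 838 and 464. At the start of Fgf5 it was 283 and 267, then 286 and 254. The arms overlapped at both, as they did at Lef1 and Zic5 in all 3 regions.

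**Figure D5:**
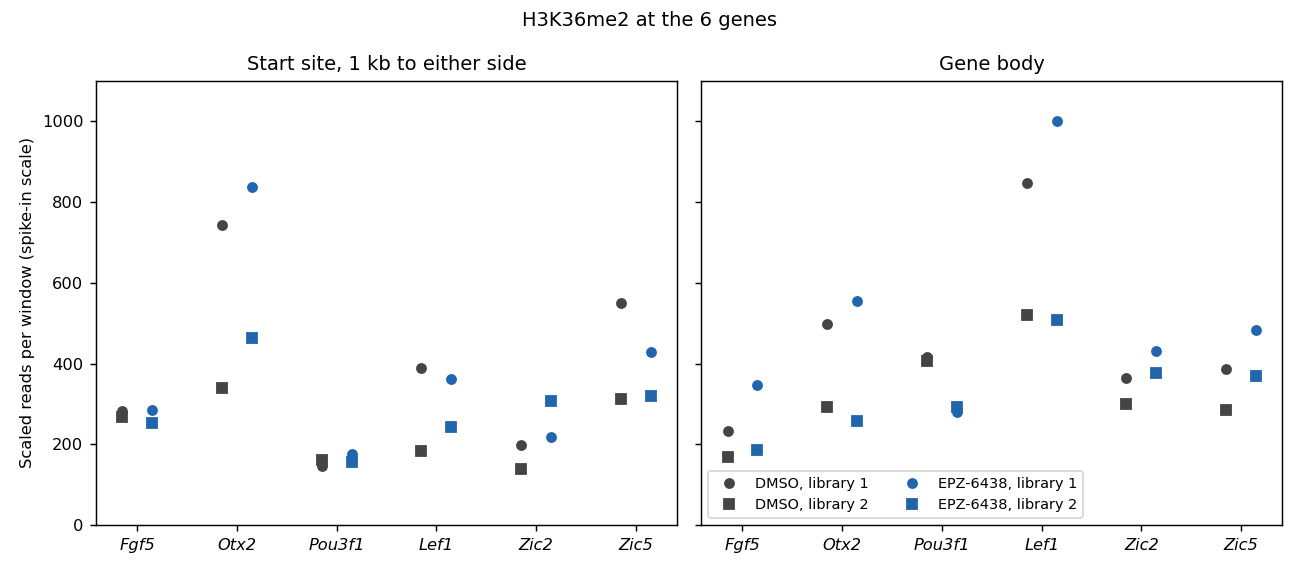
H3K36me2 at the start and over the body of each gene after DMSO and EPZ-6438, in scaled reads per window on the spike-in scale; each point is 1 library and its shape gives the replicate number in the title. The Pou3f1 body lies lower and the Zic2 start and body lie higher in both inhibitor libraries, and library 1 of an arm tends to lie above library 2 at Otx2, Lef1 and Zic5.

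The labelled cell type was checked on H3K36me3 over the body and H3K27me3 at the start, since no RNA was measured. All 8 embryonic stem cell markers (among them Pou5f1, Nanog and Zfp42) exceeded the library mean of H3K36me3 over the body, from 4.33 to 8.13. So did 68.8% of all genes. Both libraries also exceeded it in 4 of 4 mesoderm, 4 of 4 trophoblast, 3 of 4 neural, 2 of 4 endoderm and 2 of 4 fibroblast markers. Exceeding the mean therefore does not by itself tell the cell type. Of the markers of other cell types the endoderm list ran from 0.841 to 2.19, the fibroblast list from 0.266 to 2.07, the mesoderm list from 1.76 to 8.28 (Tbx6), the neural list from 0.695 to 5.02 (Nes) and the trophoblast list from 1.13 to 5.68 (Tfap2c). H3K27me3 at the start exceeded the mean in 1 of 6 stem cell markers with a start (Esrrb, 6.91), against 35.3% of genes. It did so in 4 of 4 neural, 3 of 3 trophoblast, 2 of 3 mesoderm, 1 of 2 fibroblast and 1 of 1 endoderm markers. The part of any other cell type in the results was not tested. Estimated depth was 17.3 to 50.9 M reads in the untreated libraries and 38.2 to 84.4 M in the quantitative H3K36me2 libraries.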

How the data were processed

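Per the submitters' processing notes, reads were handled with Trim Galore 0.4.2, Bowtie2 2.2.6.2 and SICER, on mm10 and, for the spike-in, dm3. The authors deposited log2 tracks in 1 kb windows every 500 bp. The values show that a whole number of reads was multiplied by 1 factor per library, raised by 1 and put on the log2 scale (100% of windows whole within 0.02). In untreated libraries the factor gave reads per 1000000, and in the others it was taken to be the spike-in factor. The authors also deposited peak lists with a score for each peak, on an unstated scale. A start counted as covered with at least 500 bp in a peak.

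Levels are mean scaled reads, returned from the log2 values to a linear scale, over windows wholly inside a region (2 windows at a start). Inhibitor and DMSO libraries were compared with limma 3.58.1 (R 4.3.3) on log2(level + 1), among genes with at least 10 window reads over 4 libraries, called at an adjusted p under 0.05. The procedure was first tested on simulated data with 200 changed genes, as many up as down, and equal depth in all 4 libraries. In the data the inhibitor H3K27me3 libraries were far shallower and nearly all genes fell. The simulation therefore does not cover that setting. Starts were known for 17276 genes. The 6 genes and all lists were chosen with earlier results of these data known. Genes named with values by rule were these 6, their families and the 2 nearest in start profile, and genes within 20 kb could be named as neighbours. Genes named from the marker, naive and other formative and primed lists were picked after their values were seen. Replicates differed by more than sampling noise (chi-square per degree of freedom over gene bodies 2.33 to 20.0). No input library and no H3K36me3 peak list was used here.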

Additional observations from a re-analysis of the deposited data

How the results depend on the processing

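The H3K27me3 comparison depended on the scale. When levels were scaled by library totals instead, limma called 1514 genes at the start (547 higher, 967 lower), 8671 over the body (7045 higher, 1626 lower) and 7080 in the flanks (5363 higher, 1717 lower), against 13827, 19020 and 21295, all lower, on the spike-in scale. The median of all genes moved from -5.30, -4.80 and -5.21 to -0.36, 0.43 and 0.16. The log2 difference then turned positive at the starts of Pou3f1 (0.76), Zic2 (3.29), Zic5 (0.26) and Lef1 (0.75), over the bodies of Pou3f1 (2.00), Zic2 (0.34) and Zic5 (1.34) and in the Lef1 flanks (0.23). It stayed negative and lost its call at 7 others, among them the Otx2 start (-1.71) and body (-1.86). Pseudocount, filter, window choice, limma-voom on recovered reads and leaving out a library left each of the 6 genes called lower for H3K27me3 in each region.

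H3K36me2 values were unstable. Library totals gave 5, 0 and 492 calls for start, body and flanks, against 117, 32 and 0, and moved the median of all genes from 0.032, 0.068 and 0.085 to -0.17, -0.13 and -0.12. They turned negative the starts of Pou3f1 (-0.092) and Lef1 (-0.053), the Lef1 body (-0.10) and the flanks of Otx2 (-0.18), Pou3f1 (-0.19), Zic2 (-0.12), Zic5 (-0.19) and Lef1 (-0.19). Without a filter there were 0 calls at the start and 0 over the body. Non-overlapping windows gave 74 and 21 calls there and changed the sign at the starts of Fgf5 (0.028) and Pou3f1 (-0.36), the Otx2 body (0.0099) and the flanks of Zic5 (-0.0079) and Lef1 (-0.00078). With limma-voom there were 0, 0 and 1 calls, and signs changed at the starts of Fgf5 (0.027) and Pou3f1 (-0.36), the Otx2 body (0.0089) and the Zic5 flanks (-0.0048). A pseudocount of 0.1 gave 49 calls over the body and 2 in the flanks. Where a value changed, the cause was not tested.

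With the replicate number as a block (replicate block), H3K36me2 had 3, 2042 and 4191 calls among 16712, 19476 and 21372 genes tested. H3K27me3 had 13966, 19059 and 21297 among 14096, 19068 and 21300. Calls for H3K36me2 over bodies and in flanks were thus common over all genes. Among the 6 genes the block called the Pou3f1 body (log2 difference -0.52, SE 0.18, limma adjusted p 0.0345) and the Fgf5 flanks (0.37, adjusted p 0.0216) for H3K36me2. Libraries of the same number deviated together in H3K36me2 over bodies (correlation 0.58) and flanks (0.64) and little elsewhere (0.014 to 0.14). The labels do not say that numbers pair the libraries, so they share only a number.

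Leaving out a library took the H3K36me2 calls to between 34 and 157 at the start and between 11 and 65 over the body. The 34 and 11 were without DMSO library 2 and the 65 without EPZ-6438 library 2, and the lone library of an arm is assumed to vary like the others. The log2 difference ranged at the start from -0.11 to 0.056 for Fgf5, -0.57 to 0.25 for Zic5, -0.25 to 0.88 for Otx2 and -0.39 to 0.69 for Lef1. Over the body it ranged from -0.58 to 0.53 for Otx2, -0.38 to 0.59 for Lef1 and -0.099 to 0.81 for Fgf5. In the flanks it ranged from -0.59 to 0.64 for Otx2, -0.35 to 0.38 for Pou3f1, -0.29 to 0.46 for Zic2, -0.37 to 0.40 for Zic5, -0.45 to 0.49 for Lef1 and -0.073 to 0.82 for Fgf5.

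The log2 median over the 6 starts in untreated cells, set against the median start in place of the library mean, was -0.53 for H3K27me2 (-0.75 before), 3.83 for H3K27me3 (2.68) and 0.34 for H3K36me3 (0.31). Non-overlapping windows gave 0.013 for H3K36me2 (-0.083) and 0.44 for H3K36me3. Leaving out a library gave -0.76 to -0.48 for H3K27me2, -0.33 to 0.17 for H3K36me2 and 0.34 to 0.35 for H3K36me3. The log2 median change in relative level after the inhibitor, set against the median start, was -0.30, -1.15 and -1.67 for H3K27me3 at start, body and flanks (0.84, -0.032 and -0.54 before) and 0.11, 0.20 and 0.026 for H3K36me2 (-0.084, 0.0052 and -0.18). Leaving out a library took the H3K27me3 medians to -0.14 to 1.19, -0.30 to -9.5e-05 and -0.69 to -0.44, the first turning negative without EPZ-6438 library 2. The H3K36me2 medians went to -0.34 to 0.076, -0.087 to 0.032 and -0.21 to -0.088. Taking the other end of Pou3f1 and Zic2 as the start, chosen after seeing the data, gave untreated H3K27me3 of 12.7 and 0.633. The counts of peaks at the starts (4 for H3K27me3, 2 for H3K36me2, 0 for H3K27me1 and H3K27me2) held with the higher-scoring peaks alone and with an overlap of 1 bp. Depth limits the inhibitor H3K27me3 libraries most, where Otx2, Zic2 and Zic5 starts held 3 to 8 reads.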
